A study of Mus musculus with 24 samples.

Results

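The 37 genes of the mouse mitochondrial chromosome were described across oocytes and early embryos, out of 55471 annotated genes in the deposited files. Members were all genes placed on chromosome MT (GRCm38, 16299 bases): 13 mRNAs, 2 rRNAs (mt-Rnr1 and mt-Rnr2) and 22 tRNAs. The plus strand of the reference holds 28 of them, with 12 mRNAs, both rRNAs and 14 tRNAs, and the minus strand holds mt-Nd6 and 8 tRNAs. The rule used no measured value, although earlier results of these data were known when it was chosen.

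The study mapped m6A, a methyl mark on adenosine of RNA, by SLIM-seq, in which total RNA was captured with an antibody against m6A (IP) and sequenced beside RNA that was not captured (input). MII oocytes, late 1-cell embryos (L1C) and late 2-cell embryos (L2C) came from wild-type B6D2F1 mice, the C57BL/6J x DBA/2N hybrid, whose 8-week-old females were superovulated, and each stage has 3 IP and 3 input libraries. Cumulus cells were stripped from oocytes with hyaluronidase, and embryos came from mating with males of the same hybrid and were grown in KSOM. A separate experiment compared L2C embryos that received Cas13d mRNA with crRNAs against Ythdc1, which encodes a nuclear reader of m6A (KD), with embryos that received Cas13d mRNA alone (Ctrl). Every embryo of that experiment was therefore injected and carried the Cas13d nuclease. The file of KD replicate 3 holds 25739 genes and 0 mitochondrial ones, so 2 KD and 3 Ctrl libraries were compared. Each library pools many oocytes or embryos, and in such bulk RNA fewer mitochondria and less RNA per mitochondrion cannot be told apart.

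Mitochondrial DNA is transcribed inside the organelle by the polymerase POLRMT as long transcripts of both strands. The tRNAs lie between most mRNAs and rRNAs, and their excision by RNase P and ELAC2 releases the other RNAs, most of which then receive short poly(A) tails from MTPAP. The mRNAs encode subunits of respiratory complexes I (mt-Nd1 to mt-Nd6 with mt-Nd4l), III (mt-Cytb) and IV (mt-Co1 to mt-Co3) and of ATP synthase (mt-Atp6, mt-Atp8). Oocytes hold a large store of mitochondria that is divided among the cells of the cleaving embryo.

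The genes abut each other, which is shown here by 3 boundaries that recur in the results and by mt-Tp, the tRNA with the most estimated counts in the SLIM-seq libraries. Capitals mark bases of the mRNA alone and lower case the tRNA, all 5′ to 3′ from the RefSeq sequence of the GRCm38 assembly.
mt-Tm to mt-Nd2, MT:3845-3943, plus strand: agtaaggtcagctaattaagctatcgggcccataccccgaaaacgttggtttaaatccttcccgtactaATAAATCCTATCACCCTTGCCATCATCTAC
mt-Nd2 to mt-Tw, MT:4920-5016, plus strand: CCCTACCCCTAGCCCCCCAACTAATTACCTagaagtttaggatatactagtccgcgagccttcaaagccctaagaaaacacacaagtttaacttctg
mt-Cytb to mt-Tt, MT:15259-15355, plus strand: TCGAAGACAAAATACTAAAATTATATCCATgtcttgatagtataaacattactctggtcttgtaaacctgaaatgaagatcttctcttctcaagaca
mt-Tp, MT:15356-15422, minus strand: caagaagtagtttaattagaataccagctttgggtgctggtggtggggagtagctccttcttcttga
No base separates mt-Tm from mt-Nd2 or mt-Cytb from mt-Tt, and the first 2 bases of mt-Tw are also the last 2 of mt-Nd2. The annotated mRNAs mt-Cytb, mt-Nd4 and mt-Co3 end 1 base past a full codon, in each case a T. Larger overlaps are 43 bases between mt-Atp8 and mt-Atp6, 7 bases between mt-Nd4l and mt-Nd4, and 14 bases between mt-Nd5 and the opposite-strand mt-Nd6. The reads of the KD experiment were counted without regard to strand, and the strand setting of the SLIM-seq quantification is not given in the sources used here, so reads from mt-Nd6 and from RNA of the opposite strand cannot be told apart.

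A second feature of the sequences limits several members. Stretches of mitochondrial DNA have been copied into the nuclear genome, and the annotation lists 9 pseudogenes that share at least 25% of the 31-base words of a mitochondrial mRNA, for 7 mRNAs in all. The copy on chromosome 1 (chr1:24612750-24616184, minus strand) matched MT:6394-9828 with 1 mismatch in 3435 bases, and an adjoining stretch (chr1:24611535-24612756) matched MT:9821-11042 with 0 mismatches. A copy on chromosome 2 (chr2:22587526-22590534) was 97.31% identical to MT:4441-7449. The first 90 bases of mt-Co2 are shown with both copies because the counts of this gene turn on them, with capitals for bases that differ from mt-Co2.
mt-Co2, MT:7013-7102, plus strand: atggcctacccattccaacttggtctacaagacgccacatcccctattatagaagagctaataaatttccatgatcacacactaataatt
Gm28661, chr1:24615476-24615565, minus strand: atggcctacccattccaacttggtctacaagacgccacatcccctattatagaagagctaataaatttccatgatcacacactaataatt
Gm13341, chr2:22587873-22587962, minus strand: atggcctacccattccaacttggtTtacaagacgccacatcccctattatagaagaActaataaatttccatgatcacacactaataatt
The chromosome 1 copy shows 0 differences in this stretch and the chromosome 2 copy 2. Of all 31-base words, 100% of mt-Co2, mt-Atp8, mt-Atp6, mt-Co3 and mt-Nd4l and 99.1% of mt-Nd3 recur in the nuclear genome, against 63.9% of mt-Co1 and 63.0% of mt-Nd4. The share was 17.1% for mt-Nd5, 13.6% for mt-Nd2, 13.0% for mt-Rnr2, 7.36% for mt-Nd6 and 6.55% for mt-Cytb, and 0% for mt-Nd1 and mt-Rnr1.

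How the deposited counts were divided between a gene and its copies varied from library to library. For mt-Co2, the 3 MII inputs gave 1, 301 and 3 estimated counts to the mitochondrial gene and 355, 79 and 266 to its copies. The 3 L1C inputs gave 416, 1 and 0 counts to mt-Co2 and 395, 558 and 336 to the copies. For mt-Atp6, the 3 MII inputs held 472, 1991 and 1455 own counts and 1740, 532 and 403 copy counts. Within a group of replicates the share kept by mt-Co2 itself ran from 0.214% to 79.2% (MII) and from 0.110% to 51.3% (L1C). For mt-Co3 and mt-Nd4l, by contrast, the copies held at most 6 counts in any SLIM-seq library. In the KD experiment the copies of mt-Atp6 held 4125 and 3443 counts in KD and 15367, 8981 and 1425 in Ctrl libraries, more than the gene itself in all 5. Results for these genes are therefore given with their own counts and, where it alters a statement, with the copies added, an alternative chosen after the data were seen.

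**Figure D1:**
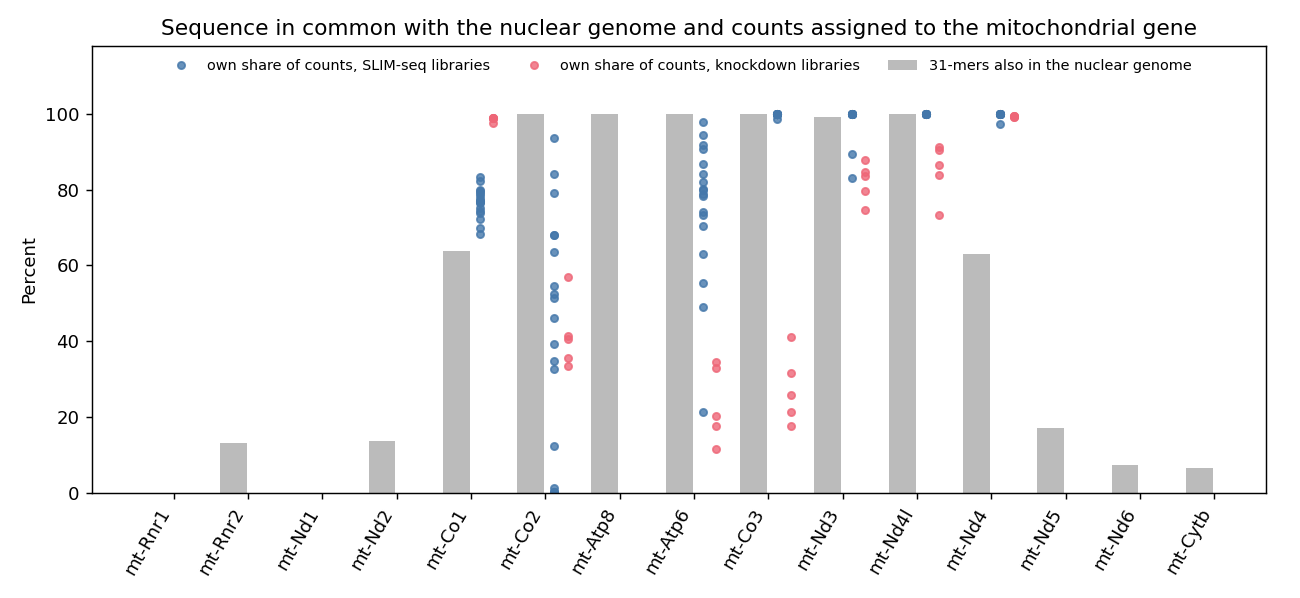
Grey bars give, for each of the 15 mRNAs and rRNAs in genome order, the percent of its 31-base words that also occur in the nuclear genome. Points give, per library, the percent of counts held by the mitochondrial gene among its own and its copies' counts, in SLIM-seq (blue) and knockdown libraries (red). For mt-Co2 the SLIM-seq points spread from 0.11% to 93.7%.

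Total estimated counts ranged from 11107421 to 39739950 per SLIM-seq library and total counts from 8696476 to 14500548 in the KD experiment, of which 16997 to 793760 and 522025 to 1012606 were mitochondrial. L2C IP replicate 2, the shallowest SLIM-seq library, stood apart within its group, with 28.8% of its mitochondrial counts on the rRNAs against 13.3% and 15.7%. Oocyte and 2-cell markers followed the labels. The summed level of 10 oocyte genes fell from 8862 to 10210 counts per 1000000 counts of the library (CPM) in MII inputs to 923 to 976 CPM in L2C inputs, and that of 12 genes of the 2-cell embryo was 73.4 to 80.1 CPM in MII inputs and 761 to 1012 CPM in L2C inputs. Of 13 cumulus and granulosa cell markers the sum was 65.5 to 79.1 CPM in MII inputs and 8.77 to 9.70 CPM in L2C inputs, with Ptx3 at 0, and the part of such cells in the mitochondrial values was not tested. For 6 sperm genes the sum was 2.37 to 2.86 CPM in MII inputs and 57.5 to 77.6 CPM in L2C inputs. Of the 2 sperm genes tested in inputs, 1 rose and 1 fell from MII to L2C, and their source was not tested. The labels do not say that replicates are separate collections, so P values measure the spread between these samples, which may be technical.

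Mitochondrial genes held a small share of every SLIM-seq library, higher in IP than in input and higher at L2C than before. The share was 0.0839%, 0.117% and 0.0916% of estimated counts in MII inputs and 0.345%, 0.268% and 0.475% in MII IPs. At L1C it was 0.208%, 0.172% and 0.114% in inputs and 0.509%, 0.680% and 0.579% in IPs. At L2C it was 0.696%, 0.378% and 0.438% in inputs and 2.00%, 1.60% and 2.00% in IPs. IP libraries lay above the inputs of their stage without overlap, and L2C inputs lay above L1C and MII inputs. As sums over the members these shares were not tested. In the KD experiment, whose counts were made by another procedure and cannot be set against SLIM-seq levels, the share was 6.07% and 5.66% in KD and 6.98%, 7.04% and 6.00% in Ctrl, and the groups overlapped. The share of mRNAs alone, 4.74% and 4.47% in KD and 5.67%, 5.70% and 4.79% in Ctrl, did not overlap, with Ctrl replicate 3 close to KD replicate 1. The rRNAs held 21.7% and 20.9% of mitochondrial counts in KD and 18.7%, 19.0% and 20.1% in Ctrl, also without overlap.

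**Figure D2:**
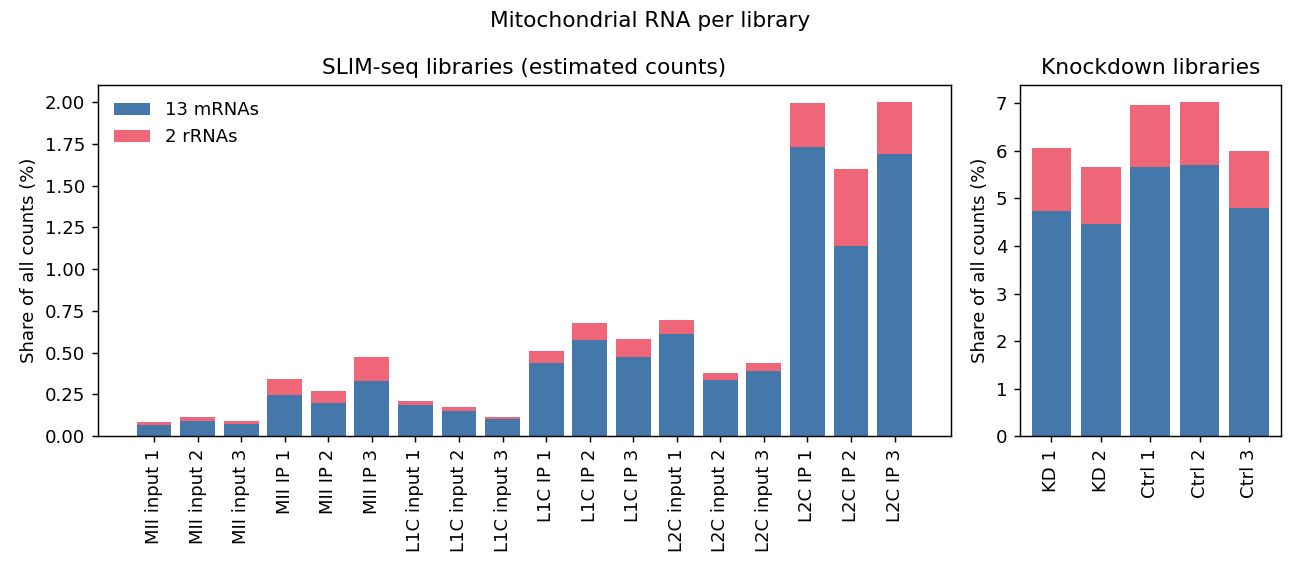
Bars give the percent of all counts in each library that lay on the 13 mitochondrial mRNAs (blue) and the 2 rRNAs (red), for the 18 SLIM-seq libraries (left) and the 5 knockdown libraries (right), with separate vertical axes that start at 0. IP bars exceed the inputs of their stage, from 0.268% to 0.475% against 0.0839% to 0.117% at MII.

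The 3 classes differed in weight. Of mitochondrial counts, the rRNAs held 22.2% ± 1.30 (SD over 3 libraries) in inputs of MII oocytes, 11.7% ± 1.00 at L1C and 11.6% ± 0.346 at L2C, and the mRNAs nearly all the rest. The minus strand held 0.28% to 0.471% of mitochondrial counts in the 9 inputs and 0.423% to 0.818% in the 9 IPs, almost all of it from mt-Nd6. The tRNAs, whose annotated lengths are 59 to 75 bases, held between 2 and 170 estimated counts per SLIM-seq library in all. Of the 22 tRNAs, 12 were at 0 in every SLIM-seq library, and mt-Tf and mt-Tp passed the filter on low counts. The highest tRNA value was mt-Tp in L2C IPs, with 140, 19 and 89 counts. At this depth tRNAs that stay at 0 may be present but not captured, and a count of 0 says nothing of tRNA levels in the cell. In the KD experiment 664 to 1752 counts per library lay on tRNAs, led by mt-Tm with 266 to 796 and mt-Tp with 184 to 309 counts, and mt-Tf and mt-Tk were at 0 in all 5 libraries.

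Which RNAs the m6A antibody enriched was asked by comparing IP with input within each stage, with the edgeR quasi-likelihood test across 21950 genes at a BH-adjusted P value under 0.05. Nearly all mitochondrial mRNAs and both rRNAs were enriched at every stage. At MII, 14 of the 15 mRNAs and rRNAs were higher in IP, where 17.7% of all genes tested were, and 0 were lower, against 21% of all genes. At L1C all 15 were higher, against 15.8% of all genes, and 0 lower, against 18.2%. Of these 15 calls, 3 were lost without single libraries: those of mt-Nd2 and mt-Atp8 and that on the own counts of mt-Co2 (3.51, adjusted p = 0.0278 by edgeR). The last was lost without L1C input replicate 2 or 3 or L1C IP replicate 1 (adjusted p = 0.0749 to 0.0904 by edgeR) and with DESeq2 (adjusted p = 0.102). Its size rested on L1C input replicate 1: without it the other L1C inputs held 1 and 0 own counts, and the fitted value was 11.21, which depends on the prior count. At L2C 14 of 15 were higher, against 22% of all genes in each direction, and 0 were lower. Without L2C IP replicate 2, 15 genes were higher there, with mt-Tp as the added call. The median log2 IP/input of the 15 was 1.92, 1.86 and 1.68 at MII, L1C and L2C, where that of all genes was 0.00, 0.07 and 0.09. The gene not called at MII and L2C was mt-Co2, with log2 IP/input of 2.43 (SE 1.18, adjusted p = 0.115 by edgeR) and 1.48 (SE 1.05, adjusted p = 0.271). Without MII input replicate 2 the MII value was 8.06 (adjusted p = 0.00364 by edgeR), on 1 and 3 counts in the inputs that remained. With the counts of its copies added its values were 1.88, 2.17 and 1.93 at MII, L1C and L2C, with SE 0.23 at each stage and adjusted p = 2.75e-06, 7.29e-07 and 1.85e-06 by edgeR, and all 15 genes were then called at all 3 stages.

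Both rRNAs, the structural RNAs of the mitochondrial ribosome, were among the clearest cases. In MII, mt-Rnr2 had 209, 315 and 252 CPM in inputs and 967, 731 and 1419 CPM in IPs. In L2C it had 684, 361 and 415 CPM in inputs and 1882, 3226 and 2199 CPM in IPs, with no overlap at either stage. Its log2 IP/input was 2.01 (SE 0.29), 1.96 (SE 0.29) and 2.32 (SE 0.3) at MII, L1C and L2C, with edgeR adjusted p = 1.83e-05, 3.41e-05 and 4.66e-06, and at L2C it was 2.06 without the library that stood apart. For mt-Rnr1 it was 2.2 (SE 0.26), 2.10 (SE 0.25) and 2.15 (SE 0.25), with adjusted p between 1.4e-06 and 3.21e-06 by edgeR. Scaling to library size alone raised the median of all genes by 0.20, 0.30 and 0.25 at the 3 stages, and so moves every IP/input value with it.

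Among subunits of complex I, mt-Nd6, the sole mRNA of the minus strand, had 2.74, 4.49 and 5.36 CPM in MII inputs and 21.7, 16.7 and 31.7 CPM in MII IPs. Its log2 IP/input was 2.49 (SE 0.36), 2.25 (SE 0.34) and 2.35 (SE 0.33) at MII, L1C and L2C, adjusted p = 1.49e-05, 3.9e-05 and 1.23e-05 by edgeR. The overlapping mt-Nd5 reached 1.92, 2.13 and 2.08, mt-Nd1 1.74, 1.83 and 1.86, and mt-Nd4 1.52, 1.43 and 1.63. The values of mt-Nd3 were 2.64, 1.95 and 2.33, and those of mt-Nd4l 1.49, 2.21 and 1.62. The values of mt-Nd2, the lowest of the complex I mRNAs at MII and L1C, were 1.34 (SE 0.34), 1.04 (SE 0.33) and 1.68 (SE 0.34), adjusted p = 0.00342, 0.0212 and 0.000545 by edgeR. Its call at L1C held in 21 of 25 alternatives and was lost without L1C input replicate 2 or 3 or L1C IP replicate 2 or 3 (0.77 to 1.05, adjusted p = 0.0524 to 0.116 by edgeR). At L1C its inputs, at 362, 284 and 182 CPM, overlapped its IPs, at 320, 754 and 624 CPM.

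The mRNA with the most counts, mt-Cytb of complex III, showed modest and even enrichment. Its inputs had 293, 338 and 283 CPM at MII, 781, 588 and 433 CPM at L1C and 2005, 1161 and 1629 CPM at L2C. Its IPs had 716, 552 and 905 CPM at MII, 1381, 1623 and 1295 CPM at L1C and 4107, 2838 and 3969 CPM at L2C. Every IP lay above the inputs of its stage, with log2 IP/input of 1.25 (SE 0.23), 1.25 (SE 0.22) and 1.19 (SE 0.22), adjusted p = 0.00018, 0.00023 and 0.00031 by edgeR. In complex IV, mt-Co1 had 1.26, 1.45 and 1.52 and mt-Co3 1.53, 1.52 and 1.52. The ATP synthase mRNAs had 2.25, 1.86 and 1.64 (mt-Atp6) and 2.46, 1.86 and 2.37 (mt-Atp8), the latter with SE of 0.61 to 0.67 on 1.76 to 20.9 CPM in inputs. The IPs of mt-Atp8 had 15.2, 9.55 and 30.3 CPM at MII, 3.51, 12.3 and 23.9 CPM at L1C and 36.3, 130.9 and 38.4 CPM at L2C. Without L2C IP replicate 2 its value at L2C was 1.5 (adjusted p = 0.0417 by edgeR). At L1C its call was lost without IP replicate 3 (1.11, adjusted p = 0.226 by edgeR) or 2 (1.91, adjusted p = 0.053), or input replicate 1 (1.84, adjusted p = 0.0832) or 3 (1.54, adjusted p = 0.133). The tRNAs mt-Tp and mt-Tf were not called at any stage, with log2 IP/input of 0.79, 0.59 and 1.26 and of 0.64, 1.40 and 0.06.

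Groups of 3 IP and 3 input libraries did not overlap for 14, 13 and 15 of the 15 mRNAs and rRNAs at MII, L1C and L2C, with IP higher, against 22.8%, 23.0% and 28.6% of all genes. The exceptions were mt-Co2 at MII and mt-Atp8 and mt-Nd2 at L1C. A looser call, modelled on the study's rule for an RNA that carries m6A, took a positive log2 IP/input, an edgeR P value below 0.05 before adjustment and over 1 count in each input. The study used DESeq2, had a separate condition for genes without a P value and kept genes found in most replicates, none of which was applied. The looser call was met by 14, 14 and 15 mitochondrial genes at MII, L1C and L2C, where 19.5%, 18.9% and 24.3% of all genes met it.

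**Figure D3:**
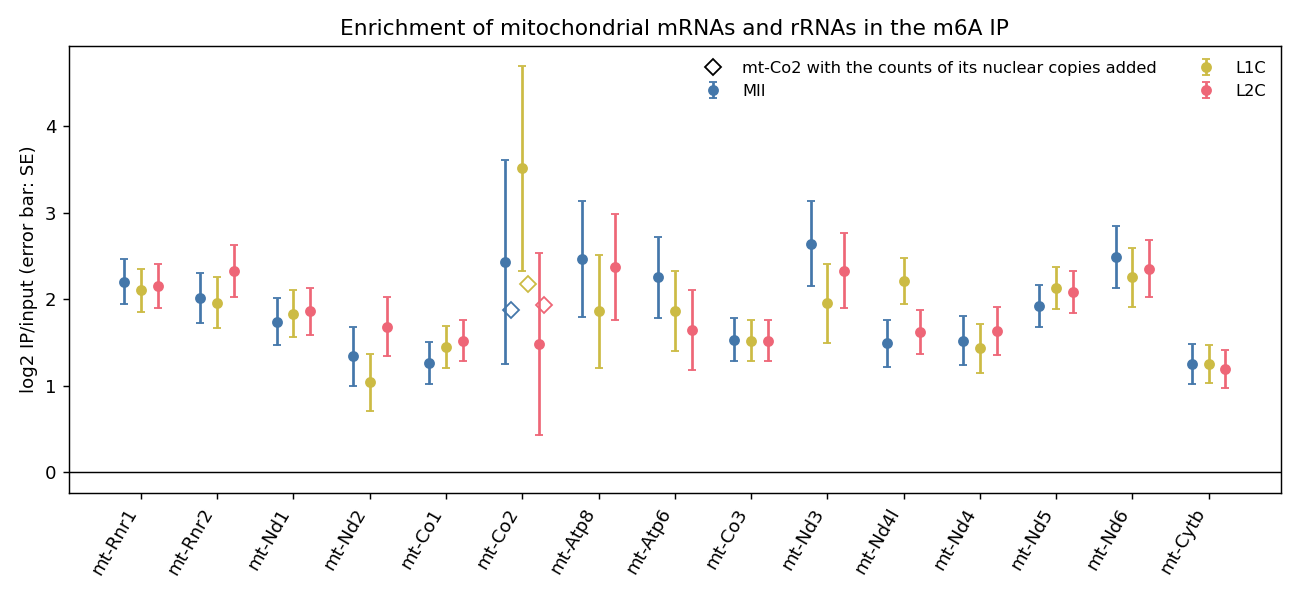
Points give log2 IP/input with its SE (edgeR) for the 15 mitochondrial mRNAs and rRNAs in genome order at MII, L1C and L2C, and open diamonds give mt-Co2 with the counts of its nuclear copies added. All points lie above 0, from 1.04 for mt-Nd2 at L1C to 3.51 for mt-Co2 at L1C.

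Whether enrichment itself changed between stages was tested as a difference of differences in the same fit. Of the 17 mitochondrial genes tested, 0 were called in either direction in any of the 3 pairs, by edgeR or by DESeq2, and 0 had an unadjusted P value under 0.05 by either tool. From MII to L1C 3.13% of all genes gained and 4.21% lost enrichment, from L1C to L2C 5.00% and 4.47%, and from MII to L2C 11.1% and 9.22%. The median difference over the 15 mRNAs and rRNAs was -0.05, 0.05 and -0.01 on the log2 scale. The smallest adjusted p was 0.303 by edgeR, for mt-Nd4l from MII to L1C, with a difference of 0.72 (SE 0.38). For mt-Cytb the differences were 0.00, -0.07 and -0.06 with SE of 0.31, and for mt-Rnr1 -0.10, 0.05 and -0.05 with SE of 0.34 to 0.35. SEs lay between 0.31 and 0.67 for 13 of the 15 genes, between 0.87 and 0.92 for mt-Atp8 and between 1.53 and 1.61 for mt-Co2, and the absence of a call does not show that enrichment was equal.

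The letters GGAC and GGACT, the latter containing the former, form the core of the context in which nuclear m6A is most often found. On the sense strand, GGACT occurred 3 times each in mt-Rnr1 and mt-Co3, 2 times in mt-Nd2, once each in mt-Rnr2, mt-Co2, mt-Nd4l and mt-Nd4, and 0 times in the other 8 mRNAs and in all 22 tRNAs. Neither strand of mt-Nd3, mt-Nd6 and mt-Atp8 holds GGAC, while the log2 IP/input of these mRNAs was between 1.86 and 2.64. Over the first 1000 bases, GGAC was found on the sense strand of 98.2% and GGACT of 69.7% of 19358 nuclear protein-coding transcripts, and on the opposite strand of 96.2% and 60.6%. Of the 6 mitochondrial genes that reach this length, GGAC was present in 5, with 1 or 2 copies where the median nuclear transcript has 5, and GGACT in mt-Rnr2 and mt-Nd2. These matches describe sequence and locate no modified base.

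Inputs are the RNA-seq of each stage. They were compared across 19903 genes to ask how the proportion of mitochondrial RNA changed from oocyte to late 2-cell embryo. Counts were set against the scaled total of each library, so a gene that rose or fell, here and below, changed in proportion. The amount of mitochondrial RNA per oocyte or embryo was not tested. From MII to L1C, 7 of the 15 mRNAs and rRNAs rose, against 31.9% of all genes, and 0 fell, against 24.3%. They were mt-Cytb (log2 1.06, SE 0.21, adjusted p = 0.000583 by edgeR), mt-Nd4 (1.03), mt-Nd1 (0.95), mt-Co1 (0.89), mt-Co3 (0.88), mt-Nd5 (0.66) and mt-Rnr1 (0.58, SE 0.23, adjusted p = 0.0458). The call of mt-Rnr1 held in 8 of 16 alternatives and was lost without MII input replicate 1, 2 or 3, L1C input replicate 1 or 2 or L2C input replicate 3, with log2 changes of 0.45 to 0.66, and with DESeq2 (0.53, adjusted p = 0.0656). That of mt-Nd5 held in 12 of 16 and was lost without MII input replicate 1 or 3 or L1C input replicate 1 or 2, with changes of 0.43 to 0.63. For mt-Rnr2 the change was -0.30 (SE 0.23, adjusted p = 0.291 by edgeR), and for mt-Nd4l -0.09. From L1C to L2C all 15 rose, by 1.08 (mt-Nd2) to 3.21 (mt-Co2, SE 1.32) on the log2 scale, against 44.1% of all genes, and 0 fell, against 38.8%. With the counts of nuclear copies added, mt-Co2 rose by 1.74 (SE 0.23, adjusted p = 5.52e-06 by edgeR), and the highest value was then 2.14 (mt-Nd4l). The call on the own counts of mt-Co2 was lost with DESeq2 (adjusted p = 0.226) and, by edgeR, without L1C input replicate 2 or 3 or L2C input replicate 1 or 3 (adjusted p = 0.0751 to 0.0945). Without L1C input replicate 1, which held nearly all own counts of mt-Co2 at L1C, the fitted value was 10.83. Without L2C input replicate 1 the gains of mt-Nd2 and mt-Nd3 were 0.61 and 0.95, in place of 1.08 and 1.59, and still called. From MII to L2C all 15 and mt-Tp rose, against 47.5% of all genes, and 0 fell, against 37.1%. The median over the 15 was 2.31 from MII to L2C, where that of all genes was 0.40.

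Scaling to library size alone raised the all-gene median of this last comparison by 0.14. Over that span mt-Cytb gained 2.71 (SE 0.22, adjusted p = 2.27e-08 by edgeR) and mt-Rnr2 1.23 (SE 0.24, adjusted p = 0.000221), the lowest of the 15. In CPM, mt-Rnr2 had 233, 222 and 141 in L1C inputs, which overlapped the MII values given above, while L2C inputs lay above both. The own counts of mt-Co2 gave a change of 3.46 (SE 1.35, adjusted p = 0.0275 by edgeR) from MII to L2C, and with the copies added 2.40 (SE 0.24, adjusted p = 2.06e-07). The call on own counts was lost without MII input replicate 1 or 3 or L2C input replicate 1 or 3 (2.84 to 3.28, adjusted p = 0.059 to 0.0796 by edgeR) and with DESeq2 (adjusted p = 0.189), and the fitted value was 9.07 without MII input replicate 2. From MII to L1C the own counts gave mt-Co2 0.25 (SE 1.34, adjusted p = 0.896), and with the copies 0.67 (SE 0.23, adjusted p = 0.0234). Groups did not overlap for 5 of the 15 from MII to L1C, 14 from L1C to L2C and 15 from MII to L2C, each with the later stage higher, against 31.1%, 40.2% and 44.3% of all genes. From L1C to L2C the exception was mt-Nd2, with 362, 284 and 182 CPM in L1C and 765, 369 and 344 CPM in L2C inputs.

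The balance of rRNA and mRNA counts therefore differed between oocyte and embryo inputs. The paper's methods prime with oligo-dT, so these counts can depend on poly(A) tails, whose part was not tested. Per length, the inputs had mt-Rnr2 at 0.517, 0.674 and 0.644 times the level of mt-Cytb at MII, 0.216, 0.272 and 0.236 times at L1C and 0.247, 0.225 and 0.184 times at L2C. The MII ratios lay above all 6 embryo ratios, and L1C and L2C overlapped. Per length, the 2 rRNAs were far apart in the 9 inputs, with mt-Rnr2 at 5.49 to 11.6 times the level of mt-Rnr1. In the 5 libraries of the KD experiment, also L2C but counted by another procedure, the ratio was 1.75 to 1.84. The share of mitochondrial mRNA counts held by mt-Cytb was 32.2% ± 2.32 (SD, n = 3) at MII, 36.2% ± 1.496 at L1C and 40.0% ± 4.29 at L2C in inputs. That of mt-Nd2 was 19.9% ± 1.07, 16.4% ± 0.537 and 11.9% ± 2.27.

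Ordered by CPM per kb with copies added, mt-Cytb led the inputs of every stage, with 266, 525 and 1397 ± 370 (SD, n = 3, L2C). In L2C inputs mt-Atp6 (716 ± 227), mt-Nd1 (487 ± 150), mt-Nd2 (475 ± 228), mt-Nd4 (314 ± 115), mt-Rnr2 (307 ± 109) and mt-Co1 (246 ± 63.6) followed, with a gap beyond the SDs between mt-Cytb and mt-Atp6 and none between the rest. Below them lay mt-Co3 (157 ± 42.2), mt-Co2 (123 ± 34.5) and mt-Nd4l (92.9 ± 23.2). Then came mt-Nd5 (66.8 ± 20.8), mt-Atp8 (64.6 ± 34.2), mt-Rnr1 (48.4 ± 14.5), mt-Nd6 (29.0 ± 13.1) and mt-Nd3 (23.9 ± 15.4), and no neighbours from mt-Atp6 down differed beyond their SDs.

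**Figure D4:**
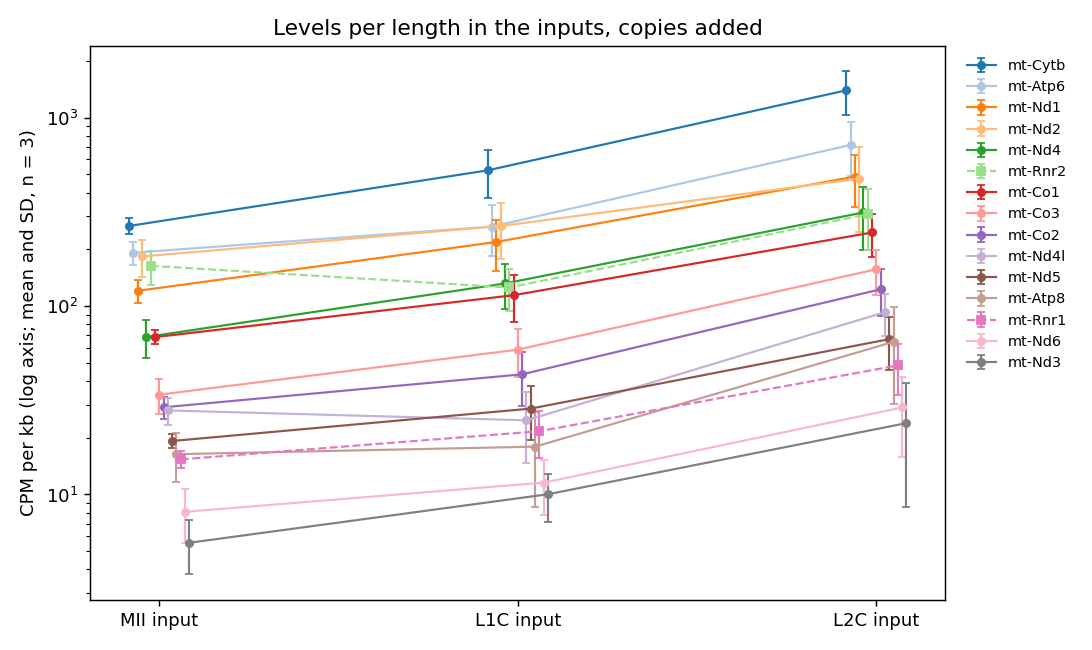
Points give the mean level in CPM per kb with SD (n = 3) of the 15 mRNAs (solid lines) and rRNAs (dashed lines) in MII, L1C and L2C inputs on a log axis, with the counts of annotated nuclear copies added. All lie higher at L2C than at MII, and mt-Rnr2 goes from 164 at MII to 126 at L1C and 307 at L2C.

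Nuclear genes that act on mitochondrial DNA and RNA moved in both directions from MII to L2C, where 47.5% of all genes rose and 37.1% fell. The 3 lists used here were chosen with earlier results of these data known, so their counts are descriptive. Of 19 genes for mitochondrial DNA and its transcription, 12 rose and 3 fell from MII to L2C, with a median log2 change of 1.34. Of 26 tested genes for RNA processing, polyadenylation and decay, 8 rose and 13 fell (median -0.53), and of 27 for RNA modification, 16 rose and 9 fell (median 0.62), while over all genes the median was 0.40. Polrmt, the mitochondrial RNA polymerase, had 19.3, 22.1 and 21.5 CPM in MII, 19.4, 31.2 and 24.8 CPM in L1C and 176, 190 and 203 CPM in L2C inputs. L2C lay above both earlier stages, with a gain of 3.50 over MII (adjusted p = 1.05e-10 by edgeR). Mtpap, which encodes the poly(A) polymerase of the organelle, went the other way, from 113, 124 and 130 CPM in MII to 8.08, 5.77 and 9.51 CPM in L2C inputs, a change of -3.64 (adjusted p = 2.25e-10 by edgeR). The RNA-binding partners Lrpprc and Slirp, which stabilise mitochondrial mRNAs, changed by -0.29 (adjusted p = 0.105 by edgeR) and 3.16 (adjusted p = 7.39e-07) over this span. Within it Lrpprc rose by 1.38 from MII to L1C (adjusted p = 5.91e-06 by edgeR) and changed by -1.67 from L1C to L2C (adjusted p = 1.73e-07). Tfam, which packages mitochondrial DNA and acts in the initiation of its transcription, changed by 2.25 from MII to L1C and by -1.95 from L1C to L2C, and Pnpt1, Supv3l1 (the degradosome) and Elac2 by -2.91, -1.58 and -1.73 from MII to L2C, each called.

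By the smallest P value within each list, Twnk (4.38), Tbrg4 (3.64) and Trub2 (7.70) led the increases from MII to L2C and Tfb1m (-4.07), Mtpap (-3.64) and Osgepl1 (-3.52) the decreases. From MII to L1C these were Twnk (1.72), 1110008L16Rik (2.28) and Trub2 (2.07), and Tfb1m (-1.01), Fastkd1 (-1.02) and Rpusd4 (-2.77). From L1C to L2C they were Twnk (2.66), Tbrg4 (3.21) and Gtpbp3 (6.16), and Mterf4 (-4.16), Ptcd2 (-3.14) and Osgepl1 (-3.35). The mRNAs of this machinery were enriched in IP in part and depleted in part. Of the 19, 26 and 27 genes tested, 7, 6 and 7 were higher and 4, 13 and 6 lower in IP at MII, 7, 5 and 5 higher and 3, 12 and 3 lower at L1C, and 5, 6 and 5 higher and 4, 8 and 9 lower at L2C. Of all genes, 17.7% were higher and 21% lower at MII, 15.8% and 18.2% at L1C, and 22% in each direction at L2C. The most clearly enriched were Tfb1m (1.75, 1.81 and 1.54 at MII, L1C and L2C), Grsf1 (1.21, 1.25 and 1.85), and Trit1 (1.41, MII), Osgepl1 (0.73, L1C) and Yrdc (1.02, L2C). The most clearly depleted were Polg (-2.08, MII, and -2.28, L1C) and Twnk (-1.82, L2C), Ptcd1 (-2.24, MII) and Dhx30 (-1.77, L1C, and -2.03, L2C), and Alkbh1 (-1.39, MII), Nsun2 (-1.43, L1C) and Gtpbp3 (-1.49, L2C). Enrichment of Tfam differed between MII and L1C by -2.33 (adjusted p = 1.22e-05 by edgeR) and that of Polrmt between L1C and L2C by -1.29 (adjusted p = 0.00424). From MII to L1C, 1, 1 and 2 genes of the 3 lists gained enrichment and 2, 0 and 2 lost it. Of all genes, 3.13% gained and 4.21% lost it. From L1C to L2C, 1, 2 and 2 gained it and 4, 1 and 3 lost it, against 5.00% and 4.47%. From MII to L2C, 2, 7 and 5 gained it and 6, 3 and 4 lost it, against 11.1% and 9.22%. The smallest P values from MII to L1C were those of Tfb2m, Pde12 and Rpusd4 (gains) and Tfam and Trub2 (losses). From L1C to L2C they were those of Polg, Lrpprc and Yrdc, and of Twnk, Tbrg4 and Trub2. From MII to L2C they were those of Polg, Fastkd3 and Alkbh1, and of Twnk, Tbrg4 and Trub2.

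The KD experiment asked what L2C embryos lacking part of Ythdc1 express. The targeted gene had 202 and 208 CPM in KD and 416, 422 and 380 CPM in Ctrl libraries, a log2 change of -0.99 (SE 0.08, adjusted p = 5.21e-08 by edgeR). Over the genes that the file of KD replicate 3 holds, that library had 493 CPM of Ythdc1, beside 498 and 521 CPM in the other KD and 1114, 1138 and 1048 CPM in Ctrl libraries. Markers moved with the groups as well, with summed levels of 765 to 826 CPM in KD and 1672 to 1770 CPM in Ctrl for the 10 oocyte genes, and of 512 to 552 CPM and 1526 to 1595 CPM for the 12 genes of the 2-cell embryo. Their part in the mitochondrial values was not tested.

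Few mitochondrial RNAs were called in this comparison, and their number rested on single libraries. Of the 29 mitochondrial genes tested (13 mRNAs, 2 rRNAs and 14 tRNAs), 1 rose, against 30.5% of 17074 genes, and 4 fell, against 36.4%. The number that fell was 1 without Ctrl replicate 1, 11 without Ctrl replicate 3 and 7 with library size in place of TMM scaling. The number that rose was 5 without KD replicate 2, 4 with no filter on low counts, and 0 without KD replicate 1, without Ctrl replicate 3, with library size or with DESeq2. The median log2 change of the 29 was -0.09, the same as over all genes. For the rRNAs it was 0.07 (SE 0.07, mt-Rnr1) and 0.03 (SE 0.07, mt-Rnr2), for mt-Cytb -0.09 (SE 0.07), mt-Nd1 -0.11 (SE 0.08), mt-Nd4 -0.09 (SE 0.08), mt-Nd5 -0.05 (SE 0.08) and mt-Nd6 -0.11 (SE 0.08), none of them called by edgeR. Without Ctrl replicate 3 these 5 mRNAs were called lower, with changes of -0.21 (mt-Nd1) to -0.15 (mt-Nd5) and adjusted p = 0.000142 (mt-Cytb) to 0.017 (mt-Nd6) by edgeR. With library size in place of TMM scaling, mt-Cytb (-0.16), mt-Nd1 (-0.18) and mt-Nd6 (-0.19) were called lower (adjusted p = 0.028 to 0.0371 by edgeR). That scaling also moved the median of all genes from -0.09 to -0.16. With no filter on low counts mt-Cytb (-0.11) and mt-Nd1 (-0.13) were called lower. With the thresholds of the study's rule for this experiment, applied to edgeR P values from 2 KD libraries where the study used DESeq2 (P below 0.05 before adjustment and an absolute log2 change above 1), 0 mitochondrial genes were higher, where 14.4% of all genes were, and 0 lower, where 24.5% were.

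The clearest change was that of mt-Nd2, a subunit of complex I. It had 4079 and 3896 CPM in KD and 6332, 6375 and 5260 CPM in Ctrl libraries. The groups did not overlap, with a log2 change of -0.59 (SE 0.08, adjusted p = 7.88e-06 by edgeR). As a share of the counts of the 13 mRNAs, which does not depend on scaling between libraries, mt-Nd2 held 8.26% and 8.48% in KD and 11.3%, 11.3% and 11.4% in Ctrl, while mt-Nd1 held 8.00% and 8.20% in KD and 7.77%, 7.93% and 7.92% in Ctrl. It was called in all 11 alternatives, with log2 changes between -0.68 and -0.54.

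The tRNA mt-Tm, whose last base borders the start of mt-Nd2, fell as well. It had 30.3 and 28.5 CPM in KD and 54.4, 41.5 and 31.7 CPM in Ctrl (log2 -0.54, SE 0.17, adjusted p = 0.00946 by edgeR). The groups did not overlap, although Ctrl replicate 3 lay close to the KD libraries, and without Ctrl replicate 1 the call was lost (-0.32, adjusted p = 0.0596). The tRNAs that follow mt-Nd2 had log2 changes of -0.85 (SE 0.48, mt-Tw), -0.56 (SE 0.70, mt-Ta) and -0.48 (SE 0.28, mt-Tn), with adjusted p = 0.127, 0.498 and 0.147 by edgeR, on 3 to 157 counts per library. Without Ctrl replicate 3 mt-Tn was called lower (-0.73, adjusted p = 0.00778 by edgeR), and mt-Ta ran from -2.29 without KD replicate 2 to 0.27 without KD replicate 1, never called. Reads of mt-Tm and mt-Nd2 from an uncut precursor and from the mature RNAs cannot be told apart in these counts.

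The other calls were each lost without a single library. For mt-Co1, KD had 3324 and 2940 CPM and Ctrl 4115, 4103 and 3283 CPM, and the groups overlapped (log2 -0.29, SE 0.09, adjusted p = 0.00847 by edgeR). The call was lost without KD replicate 2 (-0.19, adjusted p = 0.0856), Ctrl replicate 1 (-0.24, adjusted p = 0.0517) or Ctrl replicate 2 (-0.25, adjusted p = 0.0869). For mt-Nd4l, KD had 9.71 and 11.1 CPM and Ctrl 27.4, 15.2 and 12.6 CPM (log2 -0.84, SE 0.26, adjusted p = 0.00879 by edgeR), with the call lost without KD replicate 1 (adjusted p = 0.0521) or Ctrl replicate 1 (-0.43, adjusted p = 0.0707). For mt-Nd3, the single gene that rose, KD had 22.1 and 16.9 CPM and Ctrl 16.3, 14.6 and 9.53 CPM (log2 0.51, SE 0.19, adjusted p = 0.0274 by edgeR). This call was lost without KD replicate 1 (0.31, adjusted p = 0.274) or Ctrl replicate 3 (0.32, adjusted p = 0.0747), with library size in place of TMM scaling (0.44, adjusted p = 0.0539 by edgeR) and with DESeq2 (adjusted p = 0.0554), and held in 6 of 11 alternatives. Both mt-Nd3 and mt-Nd4l lie within the stretch copied to chromosome 1 and had at most 401 own counts in any library, while mt-Nd1 with no nuclear copy had 3657 to 4465 CPM.

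The remaining mRNAs of the copied stretch had changes of 0.52 (SE 0.28, mt-Co2), 0.50 (SE 0.28, mt-Atp8), 0.28 (SE 0.25, mt-Atp6) and 0.24 (SE 0.25, mt-Co3), none called by edgeR. Their direction rested on single KD libraries. Without KD replicate 2 these 4 mRNAs were called higher together with mt-Nd3, by 1.04, 0.99, 0.74 and 0.69 (adjusted p = 0.000153 to 0.00998 by edgeR), and without KD replicate 1 the values were -0.28, -0.25, -0.37 and -0.41, none called. With no filter on low counts mt-Co2 (0.50), mt-Atp8 (0.48) and mt-Atp6 (0.26) were called higher. For mt-Co2, KD replicate 1 had 87.8 CPM and KD replicate 2 35.4 CPM, and Ctrl had 49.6, 52.8 and 25.8 CPM, so that 1 library set the difference. With the copies added, mt-Atp6 went from 0.28 to -0.53 (SE 0.38, adjusted p = 0.223 by edgeR) and mt-Co2 to 0.03 (SE 0.23). Of the 14 tRNAs tested, mt-Tm was called and mt-Tp, mt-Tl1, mt-Ti, mt-Tq, mt-Tw, mt-Ta, mt-Tn, mt-Tc, mt-Tr, mt-Th, mt-Tl2, mt-Te and mt-Tt were not, with log2 changes from -1.09 (mt-Tl2, SE 0.57) to 0.51 (mt-Te, SE 0.53). Over the 29 genes, KD and Ctrl values did not overlap for 2 with KD higher (mt-Nd3 and mt-Tc), against 35.1% of all genes, and for 5 with KD lower (mt-Nd2, mt-Nd4l, mt-Tm, mt-Tw and mt-Tp), against 41.6%.

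**Figure D5:**
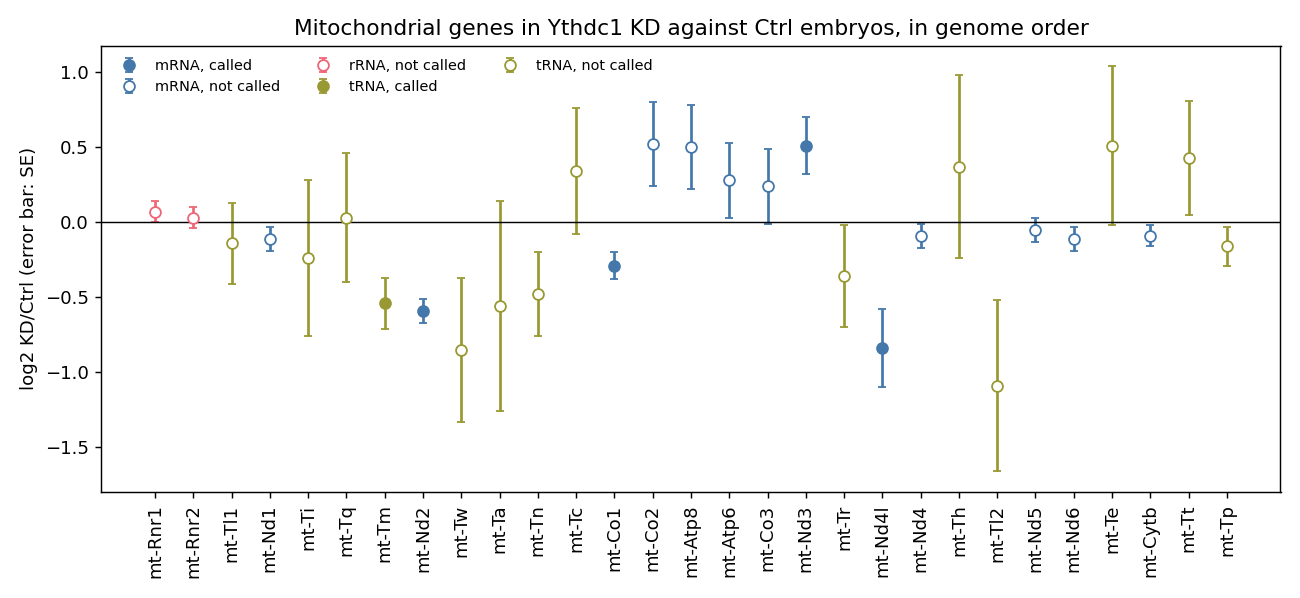
Points give the log2 change with its SE (edgeR) between 2 KD and 3 Ctrl libraries for the 29 mitochondrial genes tested, in genome order, by class (colour), filled where called. The filled points are mt-Tm, mt-Nd2, mt-Co1 and mt-Nd4l, from -0.84 to -0.29, and mt-Nd3 at 0.51.

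Among nuclear genes of the mitochondrial machinery more were called higher than lower in KD, where 30.5% of all genes were higher and 36.4% lower. As the lists were chosen with earlier results of these data known, their counts are descriptive. Of the 19 genes for mitochondrial DNA and transcription, 14 rose and 0 fell, with a median log2 change of 0.90 where that of all genes was -0.09. Of 26 genes for RNA processing and decay, 11 rose and 6 fell (median 0.07), and of 27 for RNA modification, 17 rose and 3 fell (median 0.44). Tfam had 20.3 and 17.3 CPM in KD and 6.15, 5.51 and 7.65 CPM in Ctrl, and Polrmt 41.7 and 49.6 CPM in KD and 19.1, 21.97 and 21.7 CPM in Ctrl. Neither gene overlapped between groups, with log2 changes of 1.56 (adjusted p = 1.99e-06 by edgeR) and 1.13 (adjusted p = 8.5e-07). Lrpprc (0.85), Slirp (0.91) and Elac2 (0.39) were also called higher, and Mtpap (-0.03), Pnpt1 (-0.43) and Supv3l1 (-0.05) were not called. The smallest P values in each list belonged to Ssbp1 (0.99), Trnt1 (0.91) and Mettl4 (1.21) among increases and to Angel2 (-1.02) and Nsun4 (-0.95) among decreases.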

How the data were processed

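For SLIM-seq, the authors ran kallisto with whole genes as targets. Per library they deposited estimated counts per gene, not scaled to depth, and TPM values, which divide by a deposited effective length of 15.6 to 76.0 bases for tRNAs. For the KD experiment the authors trimmed with Trimmomatic, aligned with HISAT2 and deposited raw counts per gene made by featureCounts 2.0.1 over exons, whose command as given in the file headers sets no strand and does not count reads with several alignments. Labels name a stranded kit and the methods an oligo-dT protocol. Merged tables were not used.

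Estimated counts were rounded. edgeR 4.0.16 (R 4.3.3; TMM, filterByExpr, quasi-likelihood test, BH adjustment over all genes tested, threshold 0.05) fitted the 18 SLIM-seq libraries together with 1 coefficient per stage and kind, the 9 inputs on their own and the 5 KD experiment libraries on their own. Printed CPM use the TMM-scaled sizes of the first and last fits. The scripts were tested on simulated counts.

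DESeq2 1.42.0, other scalings, no filter, a replicate block, fits of the stages compared, the study's call rules and leaving out each library were alternatives. A nuclear copy shares at least 25% of a gene's 31-base words. All 37 genes are described by class, those that pass the filter by name. Of nuclear lists, 8 genes and the smallest P value in each direction are named. Members and lists were chosen with earlier results of these data known. Gene symbols come from GENCODE M21 (55230 of 55471 matched) and sequences from RefSeq. Python 3.11.15 made tables and figures. Replicates differed by more than sampling noise in every group.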

Additional observations from a re-analysis of the deposited data

How the results depend on the processing

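Of the mitochondrial genes tested, the counts higher in IP stayed within 14 to 15 at MII, 12 to 15 at L1C and 14 to 15 at L2C when each library was left out in turn, and 0 were lower. For inputs the counts that rose were 5 to 9 (0 to 1 that fell) from MII to L1C, 14 to 16 (0 that fell) from L1C to L2C and 15 to 16 (0 that fell) from MII to L2C. Changes of enrichment stayed at 0 higher, with 0 to 1 lower from L1C to L2C, where the single call came without L1C input replicate 1. With no filter on low counts, 1 gene gained enrichment from MII to L1C, 1 lost it from L1C to L2C and 2 from MII to L2C, and 1 gene fell in inputs from MII to L1C. The own counts of mt-Co2 gave a log2 change from MII to L1C inputs of -7.39 to 5.85, lowest without L1C input replicate 1 and highest without MII input replicate 2. In KD, 0 to 5 mitochondrial genes rose and 1 to 11 fell when a library was left out: 1 fell without Ctrl replicate 1 and 11 without Ctrl replicate 3, and 5 rose without KD replicate 2. Library size without TMM gave 0 higher and 7 lower, DESeq2 0 higher, no filter 4 higher, and the study's rule 0 and 0. Leaving out 1 KD library leaves 1, whose spread is assumed to equal that of Ctrl.

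The replicate block gave 0 higher and 10 lower in KD and changed no other count by over 1.5 times. Under it the calls of mt-Nd3 in KD (0.33, adjusted p = 0.0542 by edgeR), mt-Rnr1 from MII to L1C inputs (0.56, adjusted p = 0.0512), mt-Atp8 in L1C IP (1.55, adjusted p = 0.0928) and mt-Co2 from MII to L2C inputs were lost. Same-numbered libraries did not deviate together (correlations -0.13 to 0.07 between IP and input of a stage, -0.07 to 0.13 between inputs, -0.05 and 0.04 between KD and Ctrl), so numbers were not taken as pairs. The paper took IP and input RNA from the same batches, and does not say that numbers mark batches.

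Mean mitochondrial shares on the scale of deposited TPM were 1.07% (MII input), 3.47% (MII IP), 1.53% (L1C input), 5.21% (L1C IP), 3.28% (L2C input) and 9.74% (L2C IP), and over protein-coding genes 4.91% (KD) and 5.80% (Ctrl). The share of mt-Cytb in mitochondrial mRNA TPM was 25.2%, 18.3%, 29.3%, 23.7%, 31.2% and 22.4% in the same order of SLIM-seq groups. tRNA values are limited by depth.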
